A study of Mus musculus with 8 samples.

Results

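The genes described here make cholesterol and fatty acids or control how much of them a cell makes. They are 39 genes of the mevalonate pathway, the later sterol steps, fatty acid synthesis, desaturation and elongation, the SREBP regulators and the LXR efflux genes. They were matched by symbol to array probe sets that carry a single gene symbol, and a gene with several such probe sets was read from the one whose mean over the 8 arrays was highest. Of the 39 genes, 35 were measured this way among 22180 genes in all, and Acat2, Idi1, Scd2 and Nr1h2 had no probe set with a single symbol. By role, 16 of 18 genes of the mevalonate and sterol steps were measured, 9 of 10 of the fatty acid steps, 6 of 6 of the SREBP regulators and 4 of 5 of the LXR and efflux genes.

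The study measured RNA of cultured mouse melanocytes, the pigment cells of skin, on 8 Affymetrix arrays in 4 groups of 2. KO UVA cells were Atg7 f/f Tyr::Cre melanocytes lysed 6 h after 20 J/cm² of UVA-1, which is ultraviolet A of the longest wavelengths, and KO sham cells were the same genotype after sham treatment. WT UVA and WT sham cells were Atg7 f/f melanocytes without Cre, treated in the same manner. All cells came from pups 1 to 5 days old and had been kept for 22 days in MGM-2 medium, the arrays carry the sex label female, and both genotypes carry the floxed Atg7 alleles. Tyr::Cre expresses Cre recombinase from the tyrosinase promoter, so the deletion of Atg7, a gene needed to form autophagosomes, is limited to cells in which that promoter is or was active. The labels number the arrays 1 and 2 in each group without explaining the numbers, so p-values measure the spread between these arrays. In fits that compare each UVA array with the sham array of the same genotype and number, they measure the spread of those differences.

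Cholesterol is built from acetyl-CoA through mevalonate, squalene and lanosterol, and fatty acids are built from the same acetyl-CoA by acetyl-CoA carboxylase and fatty acid synthase and then elongated and desaturated. Both branches are controlled by the SREBP transcription factors, which SCAP carries out of the endoplasmic reticulum when membrane sterol is low and which INSIG proteins hold back when it is high. The LXR nuclear receptors act in the opposite case: they respond to oxidised sterols and switch on the efflux pumps ABCA1 and ABCG1. SREBP-2 acts mainly on the sterol genes and SREBP-1 mainly on the fatty acid genes, in general together with NF-Y, which binds CCAAT boxes, and with SP1.

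The promoter windows of 4 genes that the results turn on are shown here as a view of that control. They comprise the 3 members with the strongest UVA result, Hmgcs1, Mvd and Elovl6, and Fasn as the central gene of the fatty acid branch. Each window runs from 250 bases before to 50 bases after the gene's start, 5′ to 3′ on the gene's own strand, taken from RefSeq on build GRCm38.p6. Hmgcs1 lies at chr13:119690101-119690400 on the plus strand, Mvd at chr8:122443373-122443672 on the minus strand, Elovl6 at chr3:129532136-129532435 on the plus strand and Fasn at chr11:120824498-120824797 on the minus strand. Capitals mark matches on either strand to CCAAT, which reads ATTGG on the other strand, and to the SREBP site TCACNCCAC.
Hmgcs1: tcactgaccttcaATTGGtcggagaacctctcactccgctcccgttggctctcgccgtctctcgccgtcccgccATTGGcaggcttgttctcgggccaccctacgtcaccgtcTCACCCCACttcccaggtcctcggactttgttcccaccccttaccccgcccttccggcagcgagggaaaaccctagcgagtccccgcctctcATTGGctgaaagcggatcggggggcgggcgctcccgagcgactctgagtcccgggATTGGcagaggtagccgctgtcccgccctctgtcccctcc
Mvd: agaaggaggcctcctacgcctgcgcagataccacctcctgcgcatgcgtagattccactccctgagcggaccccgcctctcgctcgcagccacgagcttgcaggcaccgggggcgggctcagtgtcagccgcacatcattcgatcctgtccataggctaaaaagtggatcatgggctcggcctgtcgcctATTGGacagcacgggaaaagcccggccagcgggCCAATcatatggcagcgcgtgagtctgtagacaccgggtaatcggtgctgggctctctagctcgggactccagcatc
Elovl6: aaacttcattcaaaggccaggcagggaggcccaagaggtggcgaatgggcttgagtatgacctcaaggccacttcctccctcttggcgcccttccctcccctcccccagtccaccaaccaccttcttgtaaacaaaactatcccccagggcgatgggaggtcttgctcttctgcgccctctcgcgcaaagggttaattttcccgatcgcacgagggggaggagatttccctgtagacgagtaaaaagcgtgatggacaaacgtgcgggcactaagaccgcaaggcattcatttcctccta
Fasn: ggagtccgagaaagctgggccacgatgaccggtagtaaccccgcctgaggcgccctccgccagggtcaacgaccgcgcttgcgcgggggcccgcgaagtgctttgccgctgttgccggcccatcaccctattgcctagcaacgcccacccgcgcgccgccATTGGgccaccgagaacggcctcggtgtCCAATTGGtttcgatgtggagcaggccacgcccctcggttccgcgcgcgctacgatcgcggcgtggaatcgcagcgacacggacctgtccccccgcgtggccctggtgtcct

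The Hmgcs1 window held the SREBP letters TCACCCCAC 137 bases before the start and 4 CCAAT boxes. The Mvd window held 2 CCAAT boxes, 60 and 27 bases before the start. The Fasn window held 3, of which 2 overlap at 62 and 59 bases before the start. The Elovl6 window held neither motif, which says only that these letters are not in this window. Windows were found for 31 of the 39 members. CCAAT on either strand was found in the windows of 14 of the 15 mevalonate and sterol genes with a window (93.3%) and of 4 of 7 fatty acid genes (57.1%), against 41.1% of 27025 genes in the table. The SP1 letters GGGCGG were found for 14 of the 15 sterol genes (93.3%) and 3 of the 7 fatty acid genes (42.9%), against 38.2% of all genes. TCACNCCAC was found for Hmgcs1 alone, 1 of 31 members (3.23%), against 1.44% of all genes. The E-box CACGTG was found for 7 of 31 members (22.6%), against 8.09% of all genes, and the LXR DR4 motif for 0 of 31, against 0.0148%. These are counts of letters, not of bound sites.

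Before the results, 2 features of the arrays need to be stated. Arrays of number 2 stood apart from arrays of number 1 in all 4 groups, with a first principal component that held 77.7% of the variance and separated the numbers. Duplicates of a group correlated at 0.962 to 0.978, less than the 0.996 to 0.997 between UVA and sham arrays of the same genotype and number. Arrays of the same number and the other genotype correlated at 0.989 to 0.997, a range that overlaps the latter. Summed over 13 measured melanocyte markers, the intensity was 58005 to 62112 on number 1 arrays and 90108 to 105242 on number 2 arrays, so markers of the labelled cell type were present on every array. Summed over 12 fibroblast markers, which should be low in a pure melanocyte culture, it was 47579 to 51797 on number 1 arrays, 19745 and 21513 on the KO UVA and KO sham arrays of number 2, and 8746 and 9902 on the WT UVA and WT sham arrays of number 2. Of the 12 fibroblast markers, only Fap lay under the array median on each array, with a lowest value of 52. Of the 9 measured keratinocyte markers, 6 or 7 lay under the array median on each array. The Atg7 probe set read 804 and 602 in KO UVA, 831 and 598 in KO sham, 1004 and 832 in WT UVA and 989 and 859 in WT sham, lower in KO in each of the 4 matched pairs. Whether that probe set covers the deleted part of Atg7 is not given in the sources used here.

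The first comparison asked how UVA-1 changed these genes 6 h later, in both genotypes together. Most of the lipid synthesis genes were lower after UVA-1, and the lowest were Mvd and Hmgcs1 of the mevalonate pathway and Elovl6, which elongates long-chain fatty acids. Arrays of one genotype and number were taken as matched UVA and sham pairs, which gives 4 pairs. UVA was below sham in all 4 pairs for 15 of the 35 measured members, against 9.08% of all 22180 genes. It was above sham in all 4 pairs for 0 of 35, against 10.6% of all genes. The shares given here and below are over genes of every level, dim ones included. Of the 35 members, 34 had a mean level at or over the median gene, and shares among genes of that level were not counted. Of the 15, 9 belong to the 16 mevalonate and sterol genes and 5 to the 9 fatty acid genes, and the other is Stard4.

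By limma over all 8 arrays without a block, 0 of 22180 genes passed an adjusted p of 0.05 (0.0%), so 0 of the 35 members did, and 401 genes had an unadjusted p under 0.05, among them 0 members. Blocking on the replicate number, 3 genes passed (0.0135%) and 0 members. With each genotype and number as a block, which takes every UVA array against its own matched sham array and leaves 2 residual degrees of freedom, 97 genes passed (0.437%), of which 44 were lower after UVA (0.198%). Among these 44 were 3 of the 35 members: Hmgcs1, Mvd and Elovl6 fell. No member passed in the opposite direction, where 53 genes did (0.239%).

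Hmgcs1 encodes the cytosolic HMG-CoA synthase, an early enzyme of the mevalonate pathway. Its intensities were 1626 and 2166 in KO UVA, against 2120 and 2700 in KO sham, and 1703 and 3740 in WT UVA, against 2225 and 4435 in WT sham, with replicate number 1 given first here and below. The UVA array was lower in each pair, while the groups overlap because number 2 was higher than number 1 throughout. Mean log2 intensity was 11.09 ± 0.55 after UVA and 11.42 ± 0.49 after sham (SD over both genotypes and numbers, n = 4 each). The log2 difference of -0.33 (SE 0.043, a ratio of 0.794) had an adjusted p of 0.0291 by limma with each genotype and number as a block.

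Mvd encodes mevalonate diphosphate decarboxylase, which makes isopentenyl diphosphate at the end of the mevalonate steps. It had 438 and 619 in KO UVA, against 594 and 879 in KO sham, and 461 and 967 in WT UVA, against 578 and 1167 in WT sham. Each UVA array was again below its sham partner, by 0.44 and 0.51 log2 units in KO and by 0.33 and 0.27 in WT. The mean difference of -0.39 (SE 0.054, a ratio of 0.765) had an adjusted p of 0.0346 in the same limma fit.

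Elovl6 encodes the elongase that adds carbons to palmitate and palmitoleate. Its values were 2154 and 2234 in KO UVA, against 2649 and 3220 in KO sham, and 2303 and 3765 in WT UVA, against 2745 and 5163 in WT sham. Here the pairs of number 2 showed the larger drops, and both KO UVA arrays lay below all 6 other arrays. The mean difference was -0.38 (SE 0.053, a ratio of 0.766) with an adjusted p of 0.0332 in that fit.

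These 3 calls depend on the fit. They were lost without the variance trend, where their adjusted p by limma was 0.232 to 0.277 and 2 genes passed in all. They were also lost when any one genotype and number was left out with both of its arrays, where 1 residual degree of freedom remained, 0 genes passed and the adjusted p was 0.527 to 0.694. Over those 4 fits the log2 difference stayed between -0.37 and -0.30 for Hmgcs1, -0.40 and -0.37 for Mvd and -0.44 and -0.33 for Elovl6.

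**Figure D1:**
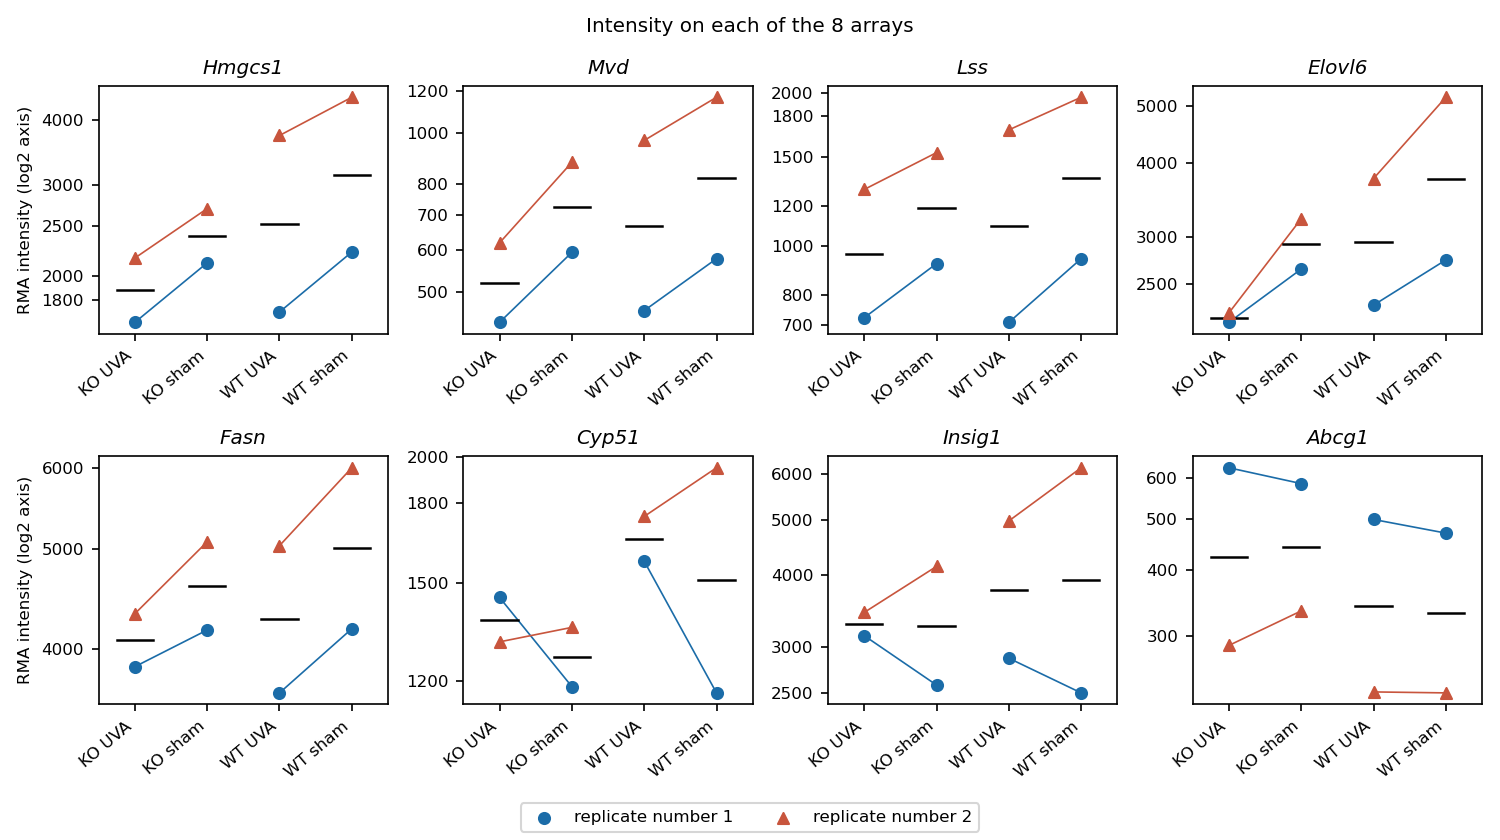
RMA intensity of 8 members on a log2 axis, 1 panel per gene, with the groups from KO UVA to WT sham along the x axis. Circles are replicate number 1, triangles number 2, thin lines join the UVA and sham arrays of 1 genotype and number, and black bars are means of the 2 log2 values. Hmgcs1, Mvd, Lss, Elovl6 and Fasn lie lower on the UVA array in all 4 pairs, Cyp51 and Insig1 go opposite ways in numbers 1 and 2, and Abcg1 lies higher in KO than in WT within each number.

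Leaving out genes whose mean level was under the median of all genes kept 34 of the 35 members, all but Nr1h3, and 11090 genes. With each genotype and number as a block, 562 of these genes passed (5.07%) and 8 members did, all lower after UVA: Hmgcs1, Mvd and Elovl6 with Fdft1, Lss, Sc5d, Acaca and Fasn. Combining this filter with this block was chosen after the data had been seen. The additional 5 had adjusted p-values of 0.0662 to 0.1 by limma with the same block on all genes, so the filter decides their call.

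Lss encodes lanosterol synthase, which closes squalene epoxide into the first sterol ring. It had 723 and 1293 in KO UVA, against 924 and 1528 in KO sham, and 708 and 1694 in WT UVA, against 945 and 1964 in WT sham. Its difference was -0.31 (SE 0.056) with an adjusted p of 0.00888 in the filtered limma fit. Fasn, the fatty acid synthase, had 3842 and 4326 in KO UVA, against 4171 and 5083 in KO sham, and 3623 and 5039 in WT UVA, against 4183 and 6000 in WT sham. Its difference was smaller, -0.20 (SE 0.038), with an adjusted p of 0.0101. Acaca, the acetyl-CoA carboxylase that feeds it, differed by -0.25 (adjusted p 0.0234), Fdft1, the squalene synthase, by -0.23 (0.0121), and Sc5d, a late sterol desaturase, by -0.19 (0.026), all by limma in the same filtered fit.

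Mvk, Sqle, Fdps and Pmvk did not pass for UVA against sham. Mvk, mevalonate kinase, had 408 and 546 in KO UVA, against 490 and 568 in KO sham, and 458 and 683 in WT UVA, against 528 and 858 in WT sham. Sqle, the squalene epoxidase, had 1537 and 2076 in KO UVA, against 1573 and 2255 in KO sham, and 1604 and 2587 in WT UVA, against 1674 and 3152 in WT sham. Both were lower after UVA in all 4 pairs, and neither passed, with log2 differences of -0.21 and -0.12 and adjusted p-values by limma of 0.207 and 0.346 with each genotype and number as a block. Fdps, farnesyl diphosphate synthase, differed by -0.01, and Pmvk, phosphomevalonate kinase, by 0.03 with 339 and 315 in KO UVA, against 296 and 342 in KO sham, and 305 and 498 in WT UVA, against 284 and 518 in WT sham. Neighbouring enzymes of one pathway thus had differences from near 0 to -0.39.

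Some members went opposite ways in the 2 replicate numbers. UVA was above sham in both pairs of number 1 and below it in both pairs of number 2 for 3 of 35 members, Pmvk, Cyp51 and Insig1, against 4.85% of all genes, and the other way round for 1 of 35, Mylip, against 5.35%. Cyp51, the lanosterol demethylase, had 1451 and 1311 in KO UVA, against 1184 and 1355 in KO sham, and 1576 and 1745 in WT UVA, against 1167 and 1950 in WT sham. Its UVA minus sham difference was 0.29 in KO and 0.43 in WT for number 1, and -0.05 in KO and -0.16 in WT for number 2. Insig1, the SREBP brake that is itself an SREBP target, had 3143 and 3448 in KO UVA, against 2579 and 4146 in KO sham, and 2871 and 4974 in WT UVA, against 2499 and 6154 in WT sham. Its difference was 0.29 in KO and 0.20 in WT for number 1, and -0.27 in KO and -0.31 in WT for number 2. The difference of Pmvk was 0.20 in KO and 0.10 in WT for number 1, and -0.12 in KO and -0.06 in WT for number 2. Averaged over the 4 pairs, Cyp51 differed by 0.13 and Insig1 by -0.02, and neither passed in any of the 3 fits.

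Among the SREBP regulators, Srebf1, Srebf2 and Insig2 differed little on average. Srebf1, the gene of SREBP-1, had 595 and 547 in KO UVA, against 576 and 516 in KO sham, and 570 and 596 in WT UVA, against 561 and 648 in WT sham. Srebf2, the gene of SREBP-2, had 2426 and 2480 in KO UVA, against 2359 and 2799 in KO sham, and 2386 and 2944 in WT UVA, against 2396 and 3130 in WT sham. The log2 difference averaged 0.01 for Srebf1 and -0.06 for Srebf2, with pairs of both signs in each. Insig2, a second INSIG gene, averaged 0.06, with 949 and 1486 in KO UVA, against 942 and 1319 in KO sham, and 947 and 1605 in WT UVA, against 870 and 1671 in WT sham. Stard4, a cytosolic sterol carrier, was lower after UVA in all 4 pairs, by 0.22 on average, with 227 and 331 in KO UVA, against 300 and 352 in KO sham, and 255 and 450 in WT UVA, against 275 and 547 in WT sham, and did not pass (adjusted p 0.269 by limma with each genotype and number as a block).

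Among the desaturases, Scd1 introduces the double bond of oleate. It had 6002 and 7869 in KO UVA, against 6103 and 7866 in KO sham, and 5645 and 9178 in WT UVA, against 5706 and 9798 in WT sham, a mean difference of -0.03. Scd1 has close paralogs, and how far its probes also bind their transcripts was not tested. Fads1 and Fads2, the desaturases of polyunsaturated fatty acids, differed by -0.04 and -0.07, and Elovl5, which elongates polyunsaturated fatty acids, by -0.06. Elovl6 was thus the 1 gene of the 5 measured in this group that passed the test.

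Of the efflux genes, Abca1 was the member with the highest UVA minus sham difference, 0.24 on average. It had 1237 and 1115 in KO UVA, against 1151 and 771 in KO sham, and 896 and 1214 in WT UVA, against 923 and 947 in WT sham. The number 2 pairs carried it, with 0.53 in KO and 0.36 in WT, against 0.10 in KO and -0.04 in WT for number 1, and it did not pass (adjusted p 0.297 by limma with each genotype and number as a block). Abcg1 differed by -0.01, Mylip, whose product marks the LDL receptor for degradation, by -0.05 (-0.14 in both genotypes for number 1, and 0.04 in KO and 0.01 in WT for number 2), and Nr1h3, the gene of LXR alpha, by -0.03.

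**Figure D2:**
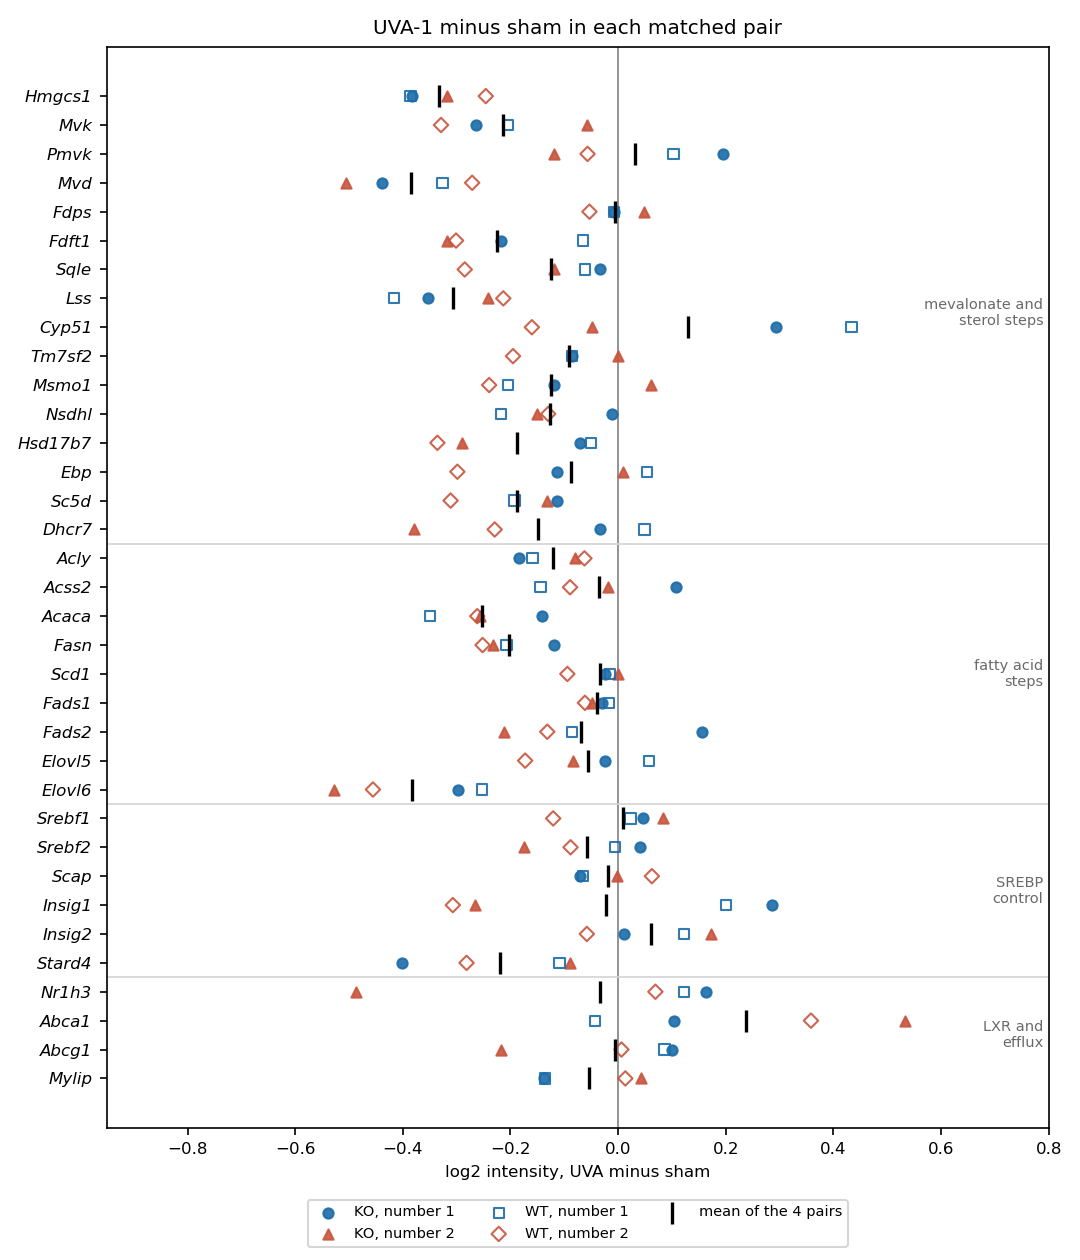
UVA minus sham log2 difference of each of the 35 measured members in the 4 matched pairs, with members grouped by role down the y axis. Blue marks are replicate number 1 and red marks number 2, filled for KO and open for WT, and black ticks are means of the 4 pairs. The means of Mvd, Elovl6, Hmgcs1 and Lss lie farthest to the left, and Abca1 and Cyp51 farthest to the right with pairs of both signs.

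Set side by side, the sterol branch had the lower median. The median UVA minus sham difference was -0.14 over the 16 mevalonate and sterol genes, with 14 of 16 negative, and -0.07 over the 9 fatty acid genes, with 9 of 9 negative, against 0.00 over all genes, of which 48.9% were negative. Within number 1 the medians were -0.10 and -0.02 for the sterol and fatty acid steps, and within number 2 they were -0.20 and -0.13. The 2 branches were not tested against each other, and each holds genes near 0 and genes near the largest drop. Proliferation genes moved with them: their median was -0.02 within number 1 and -0.16 within number 2, and the fibroblast markers had -0.05 and -0.13. The part of these in the result was not tested.

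The second comparison asked what Atg7 deletion did to the same genes, averaged over UVA and sham. The sterol and fatty acid genes were mostly lower in KO, but the difference lay almost entirely in number 2. There, fibroblast markers were higher in KO, and proliferation genes and melanocyte markers were lower. No member passed the test. By limma without a block 0 of 22180 genes passed (0.0%) and 517 had an unadjusted p under 0.05, with 0 members among them. Blocking on the replicate number gave 7 genes (0.0316%) and 0 of the 35 members, whose adjusted p-values were 0.356 or more. Taking 1 mean per genotype and number gave 0 genes with and without that block, with 736 and 257 genes at an unadjusted p under 0.05.

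In all 4 matched pairs KO was below WT for 6 of 35 members, Hmgcs1, Mvk, Fdps, Sqle, Tm7sf2 and Elovl6, against 7.78% of all genes. Tm7sf2, a sterol reductase, counts here by 1 intensity unit in each pair of number 1 (601 against 602 after UVA and 638 against 639 after sham). KO was above WT in all 4 pairs for 2 of 35, Scap and Abcg1, against 7.65% of all genes. The 4 KO arrays lay below the 4 WT arrays for 0 of 35 members, against 0.942% of all genes, and above them for 0 of 35, against 0.866%. In both pairs of number 2 KO was lower for 30 of 35 members, against 34.7% of all genes, and in both pairs of number 1 for 7 of 35, against 24.2%.

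The median KO minus WT difference was -0.18 over the mevalonate and sterol genes (15 of 16 negative), -0.09 over the fatty acid genes (8 of 9 negative) and -0.01 over all genes (54.2% negative). Within number 1 these medians were -0.01, 0.04 and 0.00, and within number 2 they were -0.36, -0.21 and -0.02. The fibroblast markers had medians of -0.01 within number 1 and 1.18 within number 2, the proliferation genes -0.10 and -0.57, and the melanocyte markers 0.02 and -0.33. In such mixed cultures fewer cells of a type and less RNA per cell cannot be told apart, and the part of the fibroblast markers in the KO difference was not tested.

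Hmgcs1 and Elovl6 had the lowest KO minus WT differences of the 35 members. The intensities given above make the KO minus WT difference of Hmgcs1 -0.07 in both pairs of number 1, and -0.79 after UVA and -0.72 after sham in number 2. For Elovl6 it was -0.10 and -0.05 in number 1 and -0.75 and -0.68 in number 2. The averages were -0.41 (SE 0.14) and -0.40 (SE 0.14), each with an adjusted p of 0.532 by limma when blocked on the replicate number. Mvk followed with -0.30 and Stard4 with -0.28. That fit counts the UVA and sham arrays of 1 genotype and number as separate, so its SEs do not measure the spread between numbers. Averaged over treatments, Hmgcs1 differed by -0.07 in number 1 and -0.75 in number 2, and Elovl6 by -0.07 and -0.72.

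On the other side, Abcg1, which exports cholesterol to lipoproteins, was the member with the highest KO minus WT difference. It had 627 and 288 in KO UVA, against 500 and 235 in WT UVA, and 585 and 335 in KO sham, against 471 and 234 in WT sham. KO was higher by 0.33 and 0.29 log2 units after UVA and by 0.31 and 0.52 after sham, in number 1 and number 2, so it did not follow the split between numbers. The average of 0.36 (SE 0.078) did not pass, with an adjusted p of 0.356 by limma when blocked on the replicate number, the lowest of all members in that fit. This SE too counts the UVA and sham arrays as separate.

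Acss2, which makes acetyl-CoA from acetate, had 544 and 512 in KO UVA, against 390 and 501 in WT UVA, and 505 and 519 in KO sham, against 431 and 533 in WT sham, an average difference of 0.17 that came from number 1. Scap, the SREBP escort, had 1442 and 1602 in KO UVA, against 1412 and 1340 in WT UVA, and 1515 and 1604 in KO sham, against 1477 and 1283 in WT sham, an average of 0.16 that came from number 2. Scap is the 1 measured member with more than 1 probe set. Abca1 averaged 0.09 with opposite signs, 0.47 and 0.32 in number 1 and -0.12 and -0.30 in number 2, after UVA and after sham. Of the genes of the regulators and of the fatty acid branch, Srebf1 averaged -0.09, Srebf2 -0.10, Insig1 -0.23, Fasn -0.09 and Scd1 -0.09, with adjusted p-values of 0.683 to 0.776 by limma when blocked on the replicate number.

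**Figure D3:**
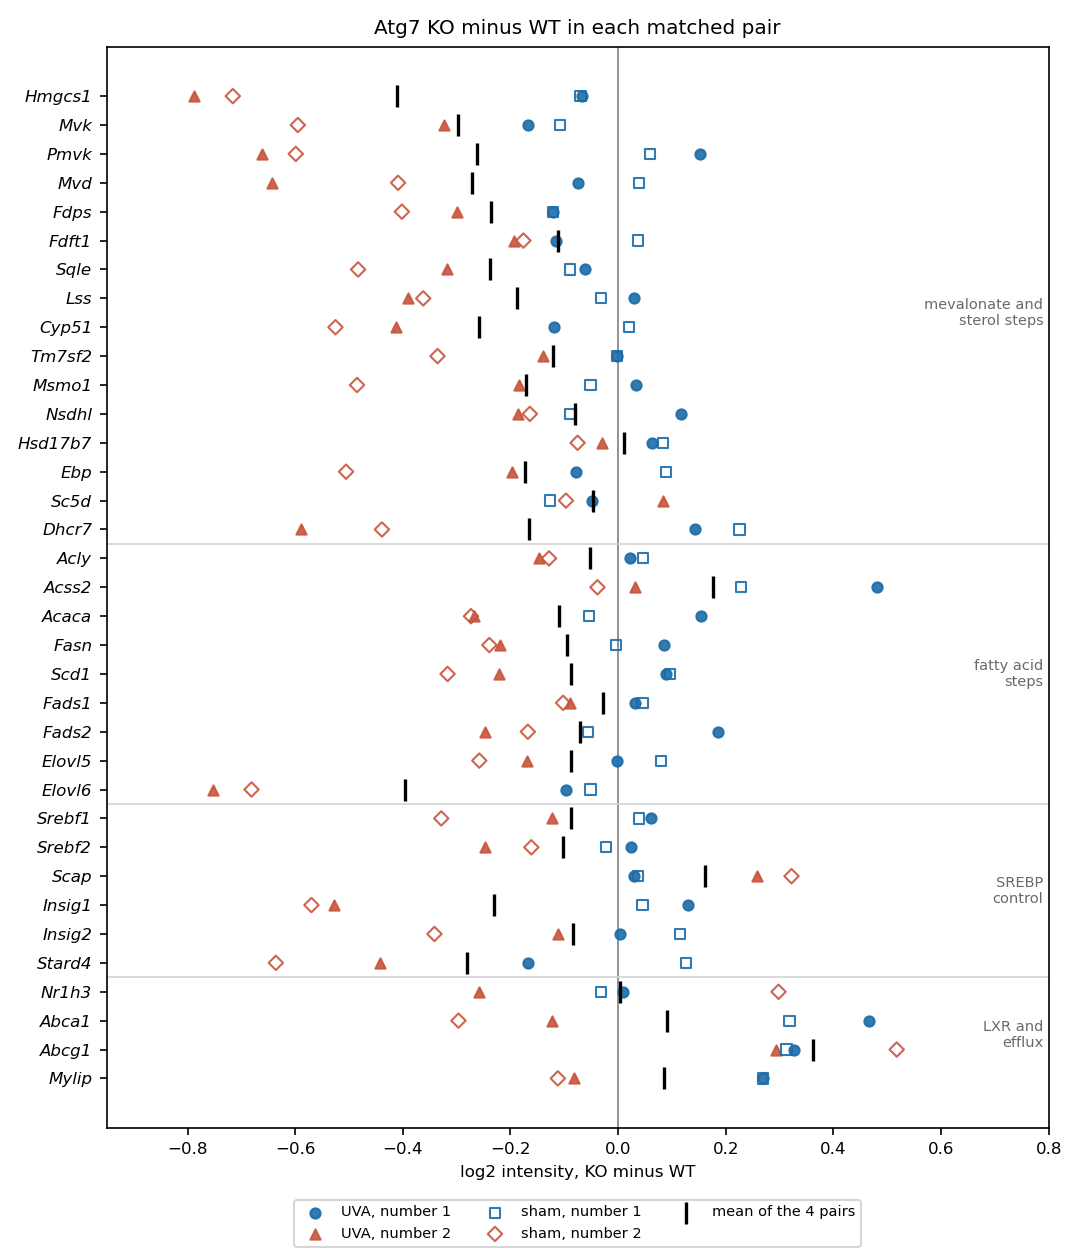
KO minus WT log2 difference of each of the 35 measured members in the 4 matched pairs, grouped by role down the y axis. Blue marks are replicate number 1 and red marks number 2, filled after UVA and open after sham, and black ticks are means of the 4 pairs. Number 1 marks lie near 0 for most sterol genes and number 2 marks lie to the left, while the 4 marks of Abcg1 all lie to the right.

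Split by treatment, the median KO minus WT difference of the mevalonate and sterol genes was -0.06 in number 1 and -0.31 in number 2 after UVA, and -0.02 and -0.42 after sham. That of the fatty acid genes was 0.08 and -0.22 after UVA and 0.05 and -0.24 after sham. By limma without a block 0 genes passed after UVA (0.0%) and 0 after sham (0.0%), where 352 and 446 genes had an unadjusted p under 0.05, and blocking on the replicate number gave 0 genes in either case.

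**Figure D4:**
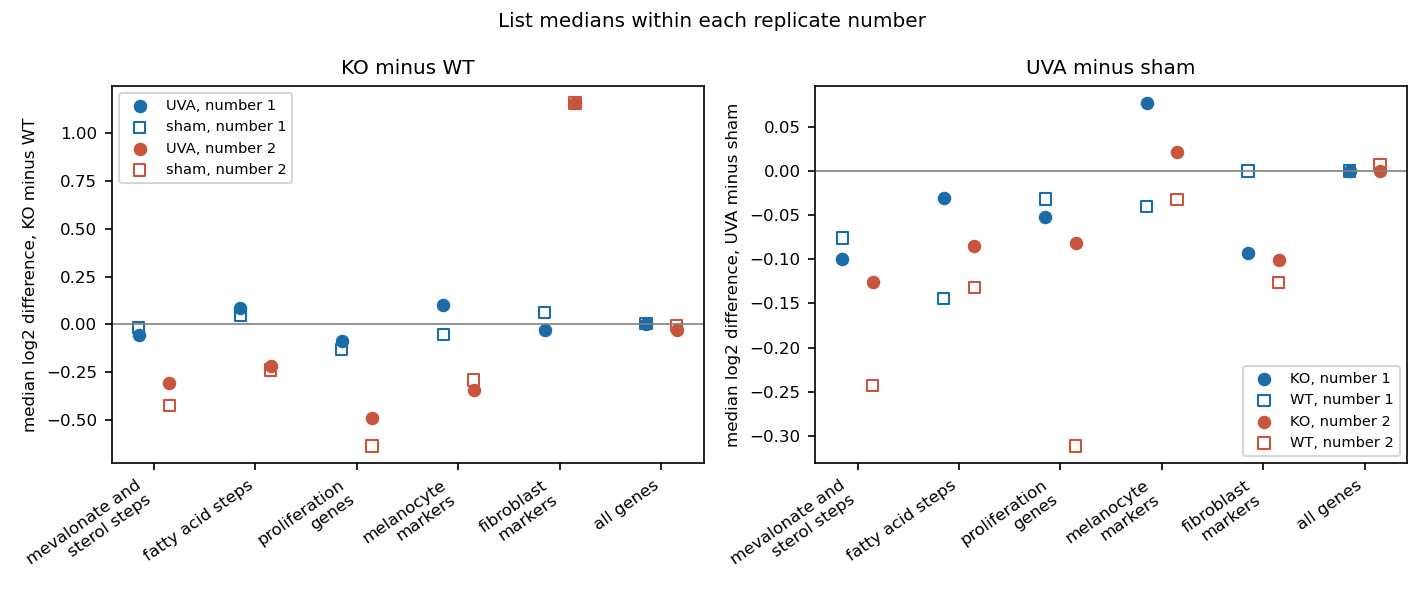
Median log2 difference of 5 gene lists and of all genes within each replicate number, KO minus WT on the left (filled after UVA, open after sham) and UVA minus sham on the right (filled in KO, open in WT). Blue marks are number 1 and red marks number 2. On the left the medians of all 5 lists leave 0 in number 2, upward for fibroblast markers and downward for the others. On the right the sterol, fatty acid and proliferation medians lie below 0 in all 4 pairs.

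The 2 replicate numbers also differed in these genes. In all 4 groups the number 2 array was above the number 1 array for 24 of 35 members, against 22.7% of all genes. The median number 2 minus number 1 difference of the mevalonate and sterol genes was 0.43 in KO UVA, 0.42 in KO sham, 0.70 in WT UVA and 0.87 in WT sham. That of the fatty acid genes was 0.17, 0.29, 0.54 and 0.58 in the same groups. Proliferation genes had 1.80, 1.93, 2.12 and 2.58, and fibroblast markers -1.17, -1.20, -2.20 and -2.09. Acly, which makes acetyl-CoA from citrate, Hsd17b7, a keto-reductase of the sterol steps, and Abcg1 were lower in number 2 in every group.

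The third comparison asked whether the UVA difference depended on Atg7. UVA minus sham in KO less the same in WT had a median of 0.03 over the mevalonate and sterol genes and 0.04 over the fatty acid genes. By limma without a block and with either block, the replicate number or each genotype and number, 0 of 22180 genes passed (0.0% in each), and 294 genes had an unadjusted p under 0.05 without a block. No member had both UVA minus sham differences up in KO and down in WT, against 2.94% of all genes, or down in KO and up in WT, against 4.51%. Hmgcs1 had an interaction of -0.03 (SE 0.086), Elovl6 of -0.06 (SE 0.105) and Mvd of -0.17 (SE 0.107), by limma with each genotype and number as a block.

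The members at the ends of the interaction were Msmo1, the methylsterol oxidase, with 0.19, Acss2 and Abca1 with 0.16 each and Sc5d with 0.13, and at the other end Nr1h3 with -0.26, Mvd, Dhcr7 with -0.12 and Abcg1 with -0.10. Msmo1 had 1374 and 1851 in KO UVA, against 1492 and 1774 in KO sham, and 1342 and 2103 in WT UVA, against 1546 and 2483 in WT sham. Nr1h3 had 149 and 107 in KO UVA, against 133 and 150 in KO sham, and 148 and 128 in WT UVA, against 136 and 122 in WT sham, close to the array medians of 110 to 115. Dhcr7, whose enzyme completes cholesterol, had 696 and 1003 in KO UVA, against 712 and 1305 in KO sham, and 630 and 1509 in WT UVA, against 609 and 1769 in WT sham. Sc5d had 2364 and 2850 in KO UVA, against 2559 and 3122 in KO sham, and 2445 and 2691 in WT UVA, against 2794 and 3339 in WT sham. All had an adjusted p of 1 by limma in the 3 fits.

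Within each genotype the UVA difference rests on 2 pairs. With each genotype and number as a block, 2 genes passed in KO (0.00902%) and 12 in WT (0.0541%) by limma, with 0 members in either, and 348 and 342 genes had an unadjusted p under 0.05 without a block, where 0 genes passed (0.0%). Blocking on the replicate number gave 2 genes in KO (0.00902%) and 1 in WT (0.00451%), with 0 members. With dim genes left out as well, 42 of 11090 genes passed in KO (0.379%) and 95 in WT (0.857%). Members among them, all lower after UVA, were Elovl6, Hmgcs1 and Mvd in KO, with differences of -0.41, -0.35 and -0.47, and Elovl6 and Hmgcs1 in WT, with -0.35 and -0.32. Mvd in WT differed by -0.30. The 2 comparisons do not share arrays, and the test of their difference is the interaction given above.

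Other genes of both pathways, taken from lists of 25 sterol and 27 fatty acid genes chosen by function, did not show the same picture. These lists are unlike the members in part. They include genes of cholesterol transport, such as Npc1, and genes under the array medians of 110 to 115, such as Elovl3 (41 to 52) and Thrsp (61 to 71). Of the members, 34 of 35 had a mean level at or over the median gene. Of the sterol genes 20 were measured, with 9 of 20 lower after UVA and a median UVA minus sham difference of 0.03. Of the fatty acid genes 25 were measured, with 13 of 25 lower and a median of 0.00. UVA was above sham in all 4 pairs for 6 of the 20 sterol and 2 of the 25 fatty acid genes, against 10.6% of all genes. It was below sham in all 4 pairs for 2 of 20 and 4 of 25, against 9.08%. None passed in the limma fits on all genes with or without a block. With dim genes left out and each genotype and number as a block, a combination chosen after the data had been seen, 2 sterol genes passed. In that fit 562 of all 11090 genes passed (5.07%). Npc1, which moves cholesterol out of late endosomes and lysosomes, had 3777 and 3396 in KO UVA, against 2985 and 3088 in KO sham, and 3864 and 3584 in WT UVA, against 2848 and 3221 in WT sham. It rose by 0.27 (SE 0.052, adjusted p 0.0122 by limma) and was higher after UVA in 4 of 4 pairs. Rnf145, a ubiquitin ligase of the endoplasmic reticulum that acts on HMG-CoA reductase, had 1184 and 1085 in KO UVA, against 1396 and 1313 in KO sham, and 1162 and 1170 in WT UVA, against 1398 and 1369 in WT sham. It fell by 0.25 (SE 0.05, adjusted p 0.0133 by limma) and was lower after UVA in 4 of 4 pairs. For KO minus WT, the median was 0.00 over the other sterol genes and -0.03 over the other fatty acid genes, with Cyp27a1 the highest sterol gene at 0.28 and Elovl7 the lowest fatty acid gene at -0.31, and neither passed.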

How the data were processed

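Total RNA of 8 melanocyte samples was hybridised to Affymetrix arrays of 1 colour, 2 per group, with groups and replicate numbers taken from the sample titles. The authors deposited 1 intensity per probe set and array, made per the submitters' processing notes by robust multi-array averaging (RMA, which includes quantile normalization) in Affymetrix Expression Console 1.3.1.187. The deposited intensity values are whole numbers from 7 to 22585, although log2 values had been assumed when the tests were planned, so log2 was taken here. Because RMA gives all arrays nearly the same distribution, a shift of most transcripts one way would not be seen. The array holds 41345 probe sets. A single symbol was listed for 23521, several for 1814 and none for 16010. The number of arrays limits the precision.

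A mean per group was fitted with limma 3.58.1 in R 4.3.3 (eBayes with trend), with 7 comparisons and Benjamini-Hochberg adjustment over all genes at a threshold of 0.05. Tests were two-sided, and the script was tested on simulated data. Deviations from the group means correlated between same-numbered arrays in all 6 pairs of groups, at 0.80 to 0.92, and the arrays were therefore treated as paired by number. The labels give no shared animal, culture or day. Blocked fits used the replicate number, or each genotype and number.

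Members, lists, the rule for named genes and the tests were chosen with earlier results of these data known. Per-array values are given for the 4 highest and 4 lowest members of each of the 3 summary comparisons and for a set of central genes. They are also given for all members that passed in a fit on all genes, with or without a block. Alternatives were the blocks, 1 value per genotype and number, dim genes left out, the mean over probe sets, no trend, log2(value + 16), median centring, arrays left out, and values within a number. Promoter windows are from RefSeq (GRCm38.p6), matched by gene symbol, and a gene counts where any of its windows holds the motif. The genome build of the array annotation is not given in the sources used here.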

Additional observations from a re-analysis of the deposited data

How the results depend on the processing

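Without a block and with every other choice kept, 0 genes passed in all 7 comparisons by limma, as they did with dim genes left out, the mean over probe sets, no trend, log2(value + 16) or median centring, and the list medians moved by less than the difference between replicate numbers. Blocking on the replicate number let 7 genes pass for KO minus WT, 3 for UVA minus sham, 2 in KO and 1 in WT, with 0 members. Pairing each genotype and number as a block gave 97, 2 and 12 genes for UVA minus sham, in KO and in WT, with 3, 0 and 0 members, and with dim genes left out as well 562, 42 and 95 genes with 8, 3 and 2 members. Without the trend the same block gave 2, 0 and 0 genes and 0 members. With 2 arrays in every group, the blocks, the filter and the trend change the variance and not the estimate. The log2 differences of Hmgcs1, Mvd, Lss, Fasn and Elovl6 are therefore the same in these fits by construction. They were -0.33, -0.39, -0.31, -0.20 and -0.38. The block changed no other call. Within 1 number, the UVA minus sham median of the sterol genes in KO was -0.13 in number 2, that of the fatty acid genes in WT -0.14 in number 1 and -0.13 in number 2, and their interaction -0.00857 and 0.0128. The sterol median less the fatty acid median was -0.0763 in number 1 for UVA minus sham and 0.0608 in number 2 for the interaction. With each array, or each genotype and number, left out in turn, with and without the block, 0 to 2 genes passed for UVA minus sham and 0 members did in any comparison. An array left out of the unblocked fit leaves its group on 1 number, so medians moved with the number. The median over these fits was -0.45 to 0.0035 for the sterol genes in KO minus WT, -0.22 to 0.10 for the fatty acid genes in KO minus WT, -0.69 to 0.17 for the sterol genes in KO minus WT after sham, -0.38 to 0.25 for the fatty acid genes in KO minus WT after sham, -0.51 to 0.16 for the sterol genes in KO minus WT after UVA, -0.31 to 0.24 for the fatty acid genes in KO minus WT after UVA, -0.33 to 0.045 for the sterol genes in UVA minus sham, -0.23 to 0.028 for the fatty acid genes in UVA minus sham, -0.31 to 0.11 for the sterol genes in UVA minus sham in KO, -0.26 to 0.064 for the fatty acid genes in UVA minus sham in KO, -0.58 to 0.21 for the sterol genes in UVA minus sham in WT, -0.44 to 0.11 for the fatty acid genes in UVA minus sham in WT, -0.38 to 0.46 for the sterol genes in the interaction and -0.29 to 0.31 for the fatty acid genes in the interaction. The sterol median less the fatty acid median was -0.22 to -0.051 for KO minus WT, -0.11 to 0.059 for UVA minus sham and -0.094 to 0.15 for the interaction. Single members were refitted only where the naming rule picked them, 14 for KO minus WT, 15 for UVA minus sham and 8 for the interaction. Of these, the sign turned in at least 1 of these fits, with none past the threshold there, for KO minus WT, Insig1 (-0.56 to 0.094), Fasn (-0.22 to 0.035), Scd1 (-0.28 to 0.11) and Abca1 (-0.081 to 0.26); for UVA minus sham, Pmvk (-0.19 to 0.25), Sqle (-0.35 to 0.10), Lss (-0.62 to 0.0085), Cyp51 (-0.055 to 0.31), Srebf1 (-0.062 to 0.078), Srebf2 (-0.15 to 0.039), Insig1 (-0.35 to 0.30), Insig2 (-0.17 to 0.30), Scd1 (-0.23 to 0.16) and Abcg1 (-0.29 to 0.27); for the interaction, Mvd (-0.71 to 0.36), Msmo1 (-0.15 to 0.53), Sc5d (-0.014 to 0.27), Dhcr7 (-0.89 to 0.65), Acss2 (-0.020 to 0.34), Abca1 (-0.18 to 0.50) and Abcg1 (-0.67 to 0.46).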
